A study of Mus musculus with 12 samples.

Results

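Solute carriers are membrane proteins that move nutrients, ions, nucleotides and drugs across the plasma membrane and across the membranes of organelles. A family number in the symbol (Slc1, Slc2 and so on) groups carriers of related sequence, and most families share a class of substrate. Members were selected on their name and on the detection p-values of the arrays. They were the genes whose platform symbol has the form Slc, a number, a letter and a number, and that had a probe above background (detection p under 0.01) on at least 3 of the 12 arrays. They came to 158 of the 324 solute carrier symbols on the array and stood among 8420 genes tested.

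Illumina bead arrays measured the RNA of mouse embryonic fibroblasts (MEFs), here primary connective-tissue cultures from E15.5 embryos of the strain C57BL6/J. Cryptochrome double knockout (dKO) MEFs were Cry1-/-Cry2-/-, and they lacked both cryptochromes, the repressors of the circadian clock that can also bind nuclear receptors. Control MEFs were Cry1+/-Cry2+/- per the sample labels, although they are wild type in the series design. The 4 groups of 3 biological replicates were dKO MEFs given dexamethasone (Dex, a synthetic glucocorticoid, 1 µM), dKO MEFs given the ethanol vehicle (EtOH), control MEFs given Dex and control MEFs given EtOH, each for 16 hours. The labels do not say whether the replicates were separate embryos or cultures, so p-values measure the spread between these samples, which may be technical. Because these were bulk cultures, fewer cells of a type and less RNA per cell cannot be told apart.

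Glucocorticoids act through a receptor that enters the nucleus on binding hormone and raises or lowers transcription of its target genes, among them genes of amino acid and glucose handling. Cryptochromes repress genes driven by the clock factors CLOCK and BMAL1, and solute carriers of amino acids, glucose and metals are among the genes known to differ between circadian phases in liver. In fibroblasts, carriers supply amino acids and glucose for matrix synthesis and growth.

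Between 42.6% and 44.9% of probes were above background on an array, and median signals lay between 187 and 216. The single Cry1 probe was above background on no array. The single Cry2 probe averaged 6.77 ± 0.37 (log2, SD, n = 3) in dKO Dex MEFs, 6.63 ± 0.22 in dKO EtOH MEFs, 6.64 ± 0.18 in control Dex MEFs and 6.16 ± 0.30 in control EtOH MEFs, so neither probe checked the genotype labels. Per2, a clock gene repressed by cryptochromes, was higher in dKO MEFs by 3.4 under Dex and by 2.86 under EtOH (log2), and Fkbp5, a classic glucocorticoid target, was higher under Dex by 4.82 in dKO and by 4.5 in control MEFs. On the third principal component (14.9% of the variance of all genes) control Dex replicate 3 (-31.1) and dKO EtOH replicates 1 (-16.3) and 2 (-14.1) lay apart from the other arrays, which ran from -3.25 to 14.5. Of 11 fibroblast markers on the array all were measured, and of 12 macrophage markers on the array 10 were measured, with Itgam and Ptprc at background. No epithelial marker of 6 on the array was measured.

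Of the 158 members, 122 were above background on all 12 arrays and 36 on fewer. The symbols stood for 154 carriers and for 4 genes that are named after a carrier without being one, namely the scaffold proteins Slc9a3r1 and Slc9a3r2 and the genes Slc4a1ap and Slc7a6os. At the threshold, Slc16a13, Slc22a4 and Slc29a4 were above background on exactly 3 arrays and entered, and Slc1a5, Slc25a35, Slc30a9 and Slc49a4 were on 2 arrays and did not. A further 8 symbols were on 1 array and 154 on none. Some members were in reach of the rule through part of the groups only. Slc10a6 was above background on Dex arrays only, Slc9b2 and Slc29a4 on EtOH arrays only, and Slc22a4, Slc35g1 and Slc29a4 on control arrays only, so that a difference between groups is built into their selection. Any calls of these members are included in the counts below.

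Carriers were assigned to substrate groups by family number and not by the substrate of each member. Slc5a7, a choline carrier, was therefore counted with sugars, inositol and sodium-coupled solutes. The substrate groups were unequally represented. Amino acid and peptide carriers had 27 members of 62 symbols on the array, mitochondrial carriers 26 of 39, metal ion carriers 19 of 28, and nucleotide sugar and acetyl-CoA carriers 18 of 25. Carriers of inorganic ions had 18 of 47, those of sugars, inositol and sodium-coupled solutes 14 of 31, those of vitamins, choline and haem 9 of 17, and carriers of organic ions, urea and vesicular cargo 9 of 39. Smaller groups were mono- and dicarboxylates with 5 of 17, fatty acids with 4 of 6 and nucleosides with 3 of 7. Slc66a1, a lysosomal carrier, and Slc66a2 belong to a family outside this list.

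Promoter windows of 4 members are shown first, because both the glucocorticoid receptor and the clock factors act through known DNA motifs. Slc45a3 and Slc10a6 had the largest Dex increases and Slc1a3 the largest genotype difference, and Slc25a33 is shown as an example of an E-box in a member called higher under Dex in both genotypes. RefSeq windows (GRCm38.p6, 250 bases before to 50 after a start site) were matched for 128 of the 158 members, in 178 windows. Slc15a3 is not among them. The 3 motifs were searched on both strands by their letters, the glucocorticoid response element as the half-sites GNACA and TGTNC with any 3 bases between them, the E-box bound by clock factors as CACGTG, and the D-box bound by PAR bZIP factors and Nfil3 as TTANGTAA. Capitals mark a match, and the windows are given 5′ to 3′ on the strand of the gene.
Slc10a6, chr5:103629354-103629653, minus strand: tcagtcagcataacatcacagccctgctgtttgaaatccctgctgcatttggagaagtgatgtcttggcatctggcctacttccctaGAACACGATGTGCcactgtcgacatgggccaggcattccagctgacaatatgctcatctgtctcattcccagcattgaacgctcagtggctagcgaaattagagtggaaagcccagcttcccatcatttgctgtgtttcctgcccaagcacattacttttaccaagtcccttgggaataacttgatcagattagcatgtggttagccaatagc
Slc45a3, chr1:131962665-131962964, plus strand: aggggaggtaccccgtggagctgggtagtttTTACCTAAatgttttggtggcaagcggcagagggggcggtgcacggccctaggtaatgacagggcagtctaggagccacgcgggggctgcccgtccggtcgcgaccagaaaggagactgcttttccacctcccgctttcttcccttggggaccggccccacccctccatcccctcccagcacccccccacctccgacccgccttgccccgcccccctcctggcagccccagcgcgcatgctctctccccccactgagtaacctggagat
Slc25a33, chr4:149774218-149774517, minus strand: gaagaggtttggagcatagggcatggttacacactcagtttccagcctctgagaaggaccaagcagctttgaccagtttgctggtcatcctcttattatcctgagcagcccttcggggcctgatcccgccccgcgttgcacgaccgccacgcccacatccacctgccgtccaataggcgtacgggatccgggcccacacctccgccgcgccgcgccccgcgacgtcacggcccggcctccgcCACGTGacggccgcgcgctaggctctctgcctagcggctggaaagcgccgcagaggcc
Slc1a3, chr15:8710758-8711057, minus strand: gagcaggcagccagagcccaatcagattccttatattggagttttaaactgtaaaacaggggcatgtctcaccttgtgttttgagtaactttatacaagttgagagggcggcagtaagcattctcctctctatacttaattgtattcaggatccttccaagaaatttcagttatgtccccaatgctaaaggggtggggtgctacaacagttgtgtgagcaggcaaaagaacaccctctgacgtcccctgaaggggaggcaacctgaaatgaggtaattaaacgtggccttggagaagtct

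Slc10a6, which had the second largest Dex increase, was the only member among those with a window that held a match to the glucocorticoid response element, 163 bases before its start site, in 0.781% of the 128 members against 0.537% of 27025 genes with a window. Slc45a3, which had the largest Dex increase, held no such match in either of its windows and held a D-box, 219 bases before the start site of the first. D-boxes were found in 3.12% of members and in 2.72% of all genes. Slc25a33, higher under Dex in both genotypes and not called by genotype, held an E-box 8 bases before its start site. E-boxes were found in 21 members (16.4%) and in 8.09% of all genes. Members were selected on detection and the genes with a window were not, so these sets are unlike. By Dex, E-boxes were in 3 of 16 members called higher and 1 of 7 lower in dKO, and in 3 of 12 and 0 of 16 in control MEFs. By genotype they were in 1 of 15 and 1 of 13 under Dex, and in 1 of 10 and 3 of 22 under EtOH. Slc1a3, which had the largest genotype difference, held none of the 3 motifs. A match is a stretch of letters and says nothing about binding, and a window without a match says nothing about the factor.

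The Dex comparison within dKO MEFs asks which carriers respond to the glucocorticoid in the absence of cryptochromes. It called 28 members at an adjusted p under 0.05, 17 higher and 11 lower (17.7%), where 14.6% of all genes were called, 8.62% higher and 5.99% lower. In control MEFs 34 members were called, 13 higher and 21 lower (21.5%), where 20.3% of all genes were called, 8.85% higher and 11.4% lower. The median change over members was 0.04 in dKO MEFs and -0.03 in control MEFs on the log2 scale, against 0.03 and -0.04 over all genes, and with genes at background held at their bounds the member medians were 0.03 and -0.03. Within the 122 members detected on all arrays, 18% and 21.3% were called. These shares lay near those of all genes.

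In both genotypes the same 17 members were called in the same direction, 9 higher and 8 lower, which was 60.7% of the members called in dKO and 50% of those called in control, and no member was called in opposite directions. Over all genes these shares were 53.4% and 38.5%. The 17 were 10.8% of members, where 7.8% of all genes were called the same way in both. The scatter of both Dex changes shows Slc45a3 and Slc10a6 far from the other members at the top and Slc15a3, Slc9b2 and Slc6a17 at the bottom.

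**Figure D1:**
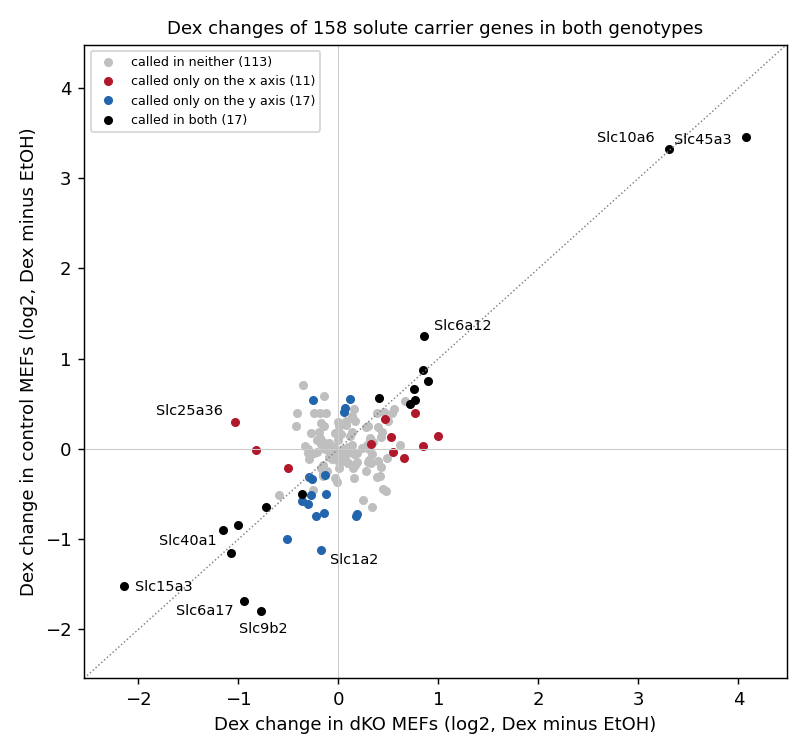
Dex change of each of the 158 members in dKO MEFs (x axis) and in control MEFs (y axis), in log2 units, Dex minus EtOH. Colours give the comparisons in which a member was called and the dotted line marks equal change; 17 members were called in both, all on the same side of 0.

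Slc45a3, first known as prostein and assigned to a family of putative sugar carriers, had the largest Dex increase. Its levels in dKO MEFs were 9.55, 9.60 and 9.74 under Dex and 5.14, 6.10 and 5.41 under EtOH, where 1 of the 3 arrays measured it. In control MEFs they were 9.93, 9.37 and 9.37 under Dex and 6.08, 6.09 and 6.12 under EtOH, where the gene was at background. The Dex and EtOH arrays did not overlap in either genotype, and the Dex arrays of both genotypes overlapped. The change was 4.08 ± 0.22 in dKO (SE, adjusted p = 2.61e-07), and in control MEFs the gene was at least 10.2-fold higher (adjusted p = 8e-07). The dKO value is fitted, with most dKO EtOH arrays at background, and the control value is a bound, so their sizes cannot be compared.

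Slc10a6, the sodium-dependent carrier of sulphated steroids, had the second largest Dex increase. Under Dex its levels were 8.45, 8.66 and 8.49 in dKO MEFs and 8.77, 8.63 and 8.12 in control MEFs. Under EtOH it was at background on all 6 arrays, at 5.44, 4.97 and 5.27 in dKO MEFs and at 4.88, 5.61 and 5.06 in control MEFs. Its detection under Dex alone brought it into the list. It was at least 5.19-fold higher under Dex in dKO (adjusted p = 1.05e-06) and at least 4.95-fold higher in control MEFs (adjusted p = 8.29e-07). A second probe of Slc10a6 moved the same way, by 1.76 in dKO and by 1.98 in control MEFs.

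Slc6a12, the betaine and GABA carrier that takes up betaine as an osmolyte, was higher under Dex and lower in dKO MEFs. Its levels in dKO MEFs were 8.67, 8.27 and 8.50 under Dex and 7.43, 7.74 and 7.72 under EtOH. In control MEFs they were 9.70, 9.52 and 9.55 under Dex and 8.23, 8.25 and 8.52 under EtOH. All 4 pairs of groups compared were separate from each other. The Dex change was 0.85 ± 0.13 in dKO (adjusted p = 0.00122) and 1.25 ± 0.13 in control MEFs (adjusted p = 5.13e-05), and the genotype change was -1.11 ± 0.13 under Dex (adjusted p = 0.000139) and -0.71 ± 0.13 under EtOH (adjusted p = 0.00234).

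The other members called higher in both genotypes were carriers of glucose, amino acids, nucleosides and choline. Slc2a1, the basal glucose transporter GLUT1, changed by 0.77 ± 0.12 in dKO and by 0.54 ± 0.12 in control MEFs. Its levels were 12.25, 12.31 and 12.23 in dKO Dex MEFs against 11.42, 11.50 and 11.56 in dKO EtOH MEFs, and 12.57, 12.26 and 12.22 in control Dex MEFs against 12.01, 11.74 and 11.69 in control EtOH MEFs. Both pairs of groups were separate. Slc7a6, an exchanger of cationic and neutral amino acids, changed by 0.85 in dKO and 0.87 in control MEFs. Slc29a1, the equilibrative nucleoside transporter ENT1, changed by 0.75 and 0.66. Slc25a33, a mitochondrial carrier of pyrimidine nucleotides, changed by 0.41 and 0.57, and Slc25a29, a mitochondrial carrier of basic amino acids at background on the dKO EtOH arrays, was at least 1.09-fold higher in dKO MEFs (adjusted p = 0.0304) and changed by 0.75 in control MEFs. Slc44a2, of the choline carrier-like family, changed by 0.72 and 0.49. These changes were smaller than those of Slc45a3 and Slc10a6.

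Without the 3 arrays that lay apart, the calls of Slc7a6 (0.49, adjusted p = 0.154), Slc29a1 (0.46, 0.0683), Slc44a2 (0.42, 0.0963), Slc25a33 (0.30, 0.244) and Slc25a29 (0.61, 0.37) in dKO MEFs were lost, while Slc2a1 kept its call (0.70, adjusted p = 0.0314). With median scaling in place of quantile normalization Slc2a1 and Slc29a1 lost their calls in control MEFs. The probes of Slc44a2 disagreed in direction in dKO MEFs. Slc25a29 was measured on 4 arrays. Its dKO call was also lost without any dKO Dex array or dKO EtOH replicate 1 (0.83) or 2 (0.81), and its control call without any single array but dKO EtOH replicate 3 and control EtOH replicate 2, with a change of 0.45 without control EtOH replicate 1. The dKO call of Slc25a33 was also lost without dKO Dex replicate 1 (0.44) or 3 (0.31), dKO EtOH replicate 1 (0.33) or 2 (0.43), or any control EtOH array (0.41 each). The control call of Slc44a2 was lost without control Dex replicate 1 (0.39) or control EtOH replicate 2 (0.48) or 3 (0.47).

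Among the members lower in both genotypes, Slc15a3, a lysosomal carrier of histidine and small peptides, had the largest change in dKO MEFs. Its levels in dKO MEFs were 8.05, 7.95 and 8.06 under Dex and 10.251, 10.002 and 10.235 under EtOH. In control MEFs they were 10.44, 10.11 and 9.71 under Dex and 11.55, 11.56 and 11.71 under EtOH. The dKO Dex arrays were lowest and the control EtOH arrays highest, with the other 6 arrays between them. The Dex change was -2.14 ± 0.16 in dKO (adjusted p = 2.95e-06) and -1.52 ± 0.16 in control MEFs (adjusted p = 4.09e-05), and the genotype change was -2.06 ± 0.16 under Dex (adjusted p = 4.33e-06) and -1.44 ± 0.16 under EtOH (adjusted p = 5.64e-05). Slc15a3 was 1 of the 4 members called in all 4 comparisons of 2 groups, with Slc1a3, Slc5a7 and Slc6a12. Each group enters 2 of these comparisons, and the share of all genes called in all 4 is not given here.

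Slc40a1, the iron exporter ferroportin, fell under Dex by 1.08 in dKO and by 1.15 in control MEFs (adjusted p = 0.000268 and 0.000111). Its levels were 9.67, 9.34 and 9.50 in dKO Dex MEFs against 10.81, 10.48 and 10.45 in dKO EtOH MEFs, and 9.757, 9.997 and 9.966 in control Dex MEFs against 11.06, 10.89 and 11.21 in control EtOH MEFs. Dex and EtOH arrays were separate in both genotypes. Slc27a3, a fatty acid transport protein with acyl-CoA synthetase activity, changed by -1.15 ± 0.14 in dKO and by -0.90 ± 0.14 in control MEFs. Its levels were 8.46, 8.27 and 8.46 in dKO Dex MEFs against 9.45, 9.83 and 9.37 in dKO EtOH MEFs, and 8.39, 7.91 and 8.10 in control Dex MEFs against 9.09, 8.99 and 9.02 in control EtOH MEFs. Again no Dex array reached the level of an EtOH array of its genotype.

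Slc6a17, a vesicular carrier of neutral amino acids known from neurons, had levels of 6.70, 6.95 and 6.15 in dKO Dex MEFs against 7.71, 7.43 and 7.48 in dKO EtOH MEFs, and of 6.72, 6.50 and 6.05 in control Dex MEFs against 8.06, 8.16 and 8.10 in control EtOH MEFs. The groups were separate in both genotypes, by -0.94 ± 0.20 in dKO (adjusted p = 0.00985) and by -1.68 ± 0.20 in control MEFs (adjusted p = 0.00014). Without the 3 arrays that lay apart the dKO change was -0.88 and its call was lost (adjusted p = 0.0719). Slc9b2, a sodium and proton exchanger, was at background on all Dex arrays. Its detection on EtOH arrays alone brought it into the list, so a Dex difference is built into its selection. Its EtOH levels were 6.68, 6.27 and 5.90 in dKO MEFs, with 2 arrays above background, and 7.23, 7.08 and 7.69 in control MEFs. In control MEFs it was at least 2.23-fold lower under Dex (adjusted p = 0.00017), and its call in dKO MEFs (adjusted p = 0.0376) was lost when any of the 3 dKO Dex arrays, dKO EtOH replicate 1 (fitted change -0.58) or 2, or control EtOH replicate 1 was left out. Slc48a1, the lysosomal haem carrier HRG1, changed by -0.36 in dKO and -0.50 in control MEFs, and its dKO call was lost without any dKO Dex array, dKO EtOH replicate 2 or 3, control Dex replicate 2 or control EtOH replicate 2 or 3 (changes from -0.43 to -0.30).

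A further 17 members were called in control MEFs alone, which does not show that the genotypes differ. Slc1a2, a glutamate carrier, had a log2 difference of -0.17 ± 0.21 in dKO MEFs, and it was at background on the control Dex arrays, at least 1.38-fold lower than under EtOH (adjusted p = 0.00249). Slc7a4, of the cationic amino acid carrier family, gave -0.52 ± 0.21 in dKO and -0.998 ± 0.21 in control MEFs (adjusted p = 0.00592 in control). Slc25a10, the mitochondrial dicarboxylate carrier, gave 0.19 in dKO and -0.72 in control MEFs. Slc52a3, a riboflavin carrier, gave -0.15 and -0.71. Slc2a6, a lysosomal glucose transporter family member, gave -0.28 and -0.51. The 11 members called in dKO MEFs alone included Slc2a3, the high-affinity glucose transporter GLUT3 (0.85 in dKO, 0.03 in control), Slc41a3, of a magnesium carrier family (0.66 and -0.11), Slc9a3r1 (0.999 and 0.14) and Slc25a36, a mitochondrial pyrimidine nucleotide carrier (-1.03 and 0.30). Slc2a3 and Slc41a3 lost the call without the 3 arrays that lay apart (0.48 and 0.47), and Slc9a3r1 and Slc25a36 each lost it without any dKO Dex array, dKO EtOH replicate 1 or 2, or any control EtOH array. Over all single omissions the Slc9a3r1 change ran from 0.81 to 1.36 and the Slc25a36 change from -1.36 to -0.81.

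**Figure D2:**
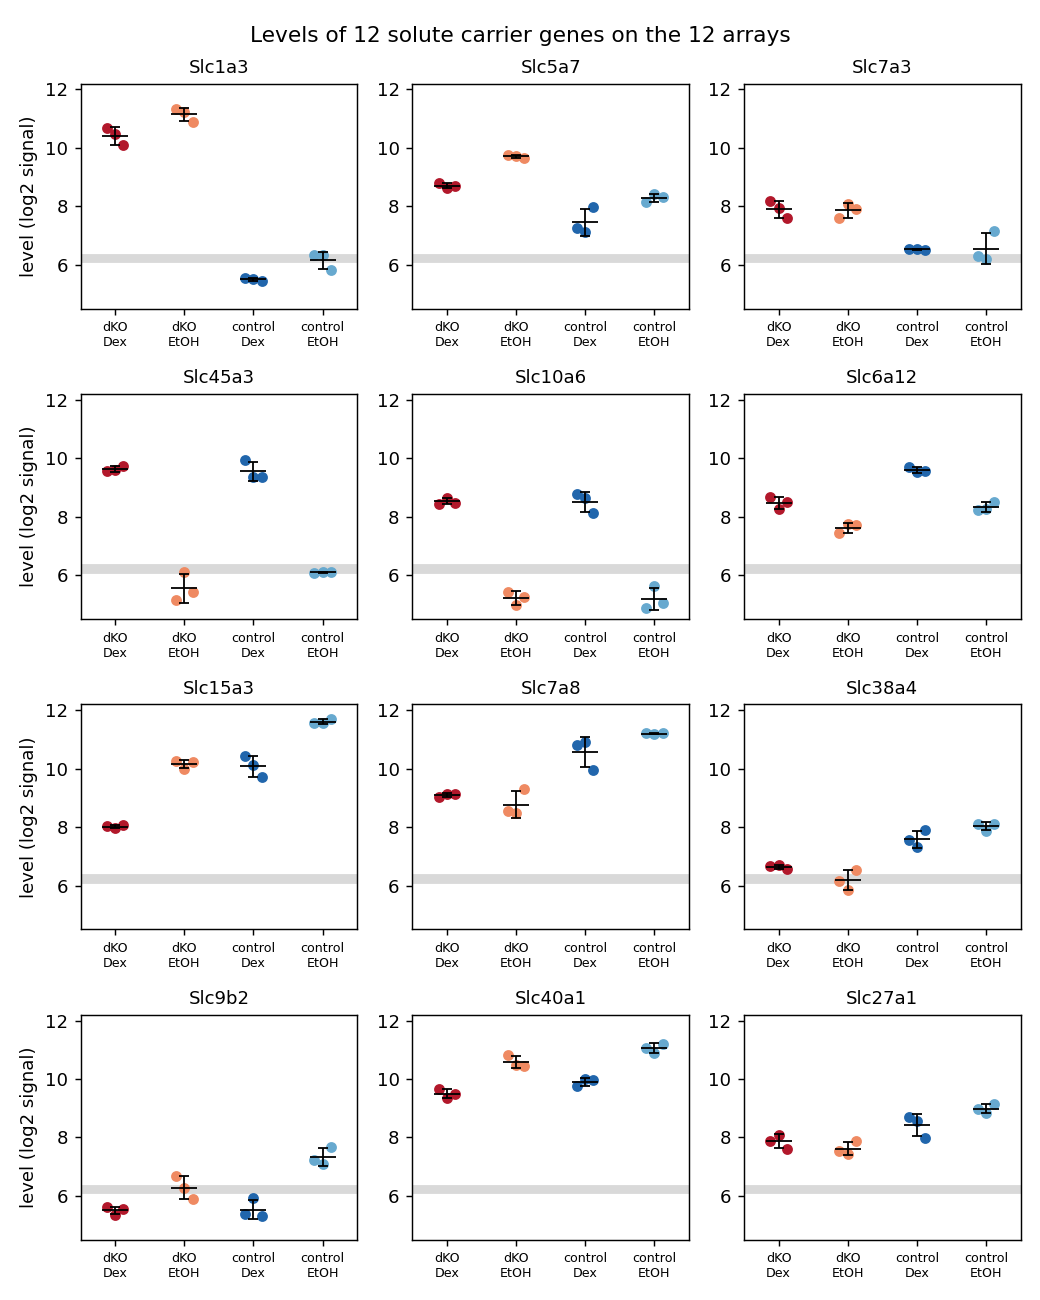
Levels (log2 signal) of 12 members on each of the 12 arrays, with points for arrays, and a bar and error bar for the mean ± SD of 3 arrays. The grey band is the range over arrays of the lowest level above background; Slc1a3 lies below it on the control Dex arrays and between 10.09 and 11.34 on the dKO arrays.

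The genotype comparison asks which carriers differ in the absence of cryptochromes. Under Dex 31 members were called, 16 higher and 15 lower in dKO MEFs (19.6%), where 19.7% of all genes were called, 9.92% higher and 9.82% lower. Under EtOH 39 members were called, 13 higher and 26 lower (24.7%), where 26.5% of all genes were called, 10.7% higher and 15.8% lower. The median change over members was -0.03 under Dex and -0.10 under EtOH, against 0.01 and -0.05 over all genes. Under both treatments 14 members were called in the same direction, 5 higher and 9 lower, and none in opposite directions. They were 8.86% of members, where 10.9% of all genes were called the same way. They made up 45.2% of the members called under Dex and 35.9% of those called under EtOH, where over all genes these shares were 55.1% and 41%.

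**Figure D3:**
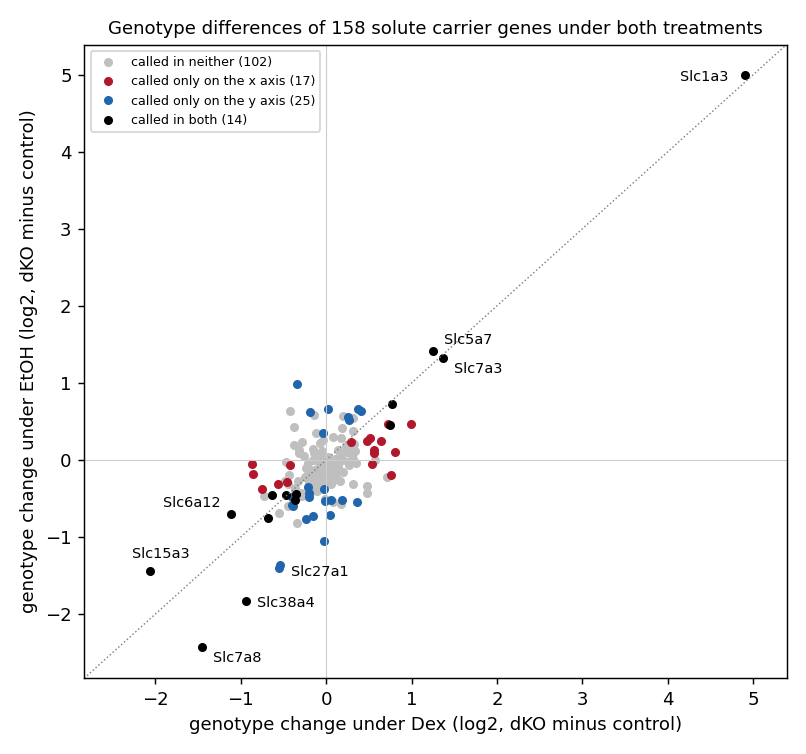
Genotype change of each of the 158 members under Dex (x axis) and under EtOH (y axis), in log2 units, dKO minus control. Colours give the comparisons in which a member was called and the dotted line marks equal change. Slc1a3 stands alone at fitted values of 4.91 and 4.99, the first against control Dex arrays at background.

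Slc1a3, the glutamate and aspartate carrier GLAST, had the largest change of any member in any comparison. Its levels were 10.69, 10.48 and 10.09 in dKO Dex MEFs and 11.34, 11.21 and 10.89 in dKO EtOH MEFs. They were 5.54, 5.53 and 5.45 in control Dex MEFs, all at background, and 6.32, 6.32 and 5.82 in control EtOH MEFs, with 2 arrays above it. Every dKO array lay far above every control array. Under Dex it was at least 18.9-fold higher in dKO MEFs (adjusted p = 1.36e-08), and under EtOH the change was 4.99 ± 0.18 (adjusted p = 1.88e-08). Within each genotype it was called lower under Dex, by 0.73 in dKO (adjusted p = 0.0197), and in control MEFs with no fold given because its Dex arrays were at background (adjusted p = 0.0247). The call in dKO was lost without dKO Dex replicate 3 (-0.56), dKO EtOH replicate 1 (-0.63) or dKO EtOH replicate 2 (-0.69), and the call in control MEFs was lost without any of the 3 control Dex arrays (fitted changes of -0.66, -0.66 and -0.62) or without control EtOH replicate 1 or 2 (-0.56 each).

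Slc5a7, the sodium-coupled high-affinity choline carrier, was higher in dKO MEFs and lower under Dex. Its levels were 8.80, 8.61 and 8.71 in dKO Dex MEFs and 9.77, 9.71 and 9.65 in dKO EtOH MEFs. In control MEFs they were 7.25, 7.13 and 7.98 under Dex and 8.16, 8.43 and 8.31 under EtOH. No 2 of the compared groups overlapped. The genotype change was 1.25 ± 0.18 under Dex (adjusted p = 0.000552) and 1.41 ± 0.18 under EtOH (adjusted p = 0.000205), and the Dex change was -1.002 ± 0.18 in dKO and -0.85 ± 0.18 in control MEFs (adjusted p = 0.00361 and 0.00661).

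Slc7a3, a cationic amino acid carrier, had levels of 8.18, 7.93 and 7.59 in dKO Dex MEFs against 6.53, 6.55 and 6.52 in control Dex MEFs, and of 7.60, 8.10 and 7.93 in dKO EtOH MEFs against 6.29, 6.22 and 7.15 in control EtOH MEFs. Every dKO array was above every control array. The changes were 1.37 ± 0.23 under Dex and 1.32 ± 0.23 under EtOH (adjusted p = 0.00155 and 0.00166), and the Dex values were 0.03 in dKO and -0.02 in control MEFs. Slc6a9, the glycine carrier GLYT1, was higher by 0.77 under Dex and by 0.73 under EtOH, and with median scaling it lost the EtOH call. Slc24a3, a potassium-dependent sodium and calcium exchanger, was higher by 0.75 and 0.45, and its EtOH call was lost without control EtOH replicate 1 (0.42).

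The members lower in dKO MEFs under both treatments began with Slc7a8, the neutral amino acid exchanger LAT2. Its levels were 9.03, 9.14 and 9.14 in dKO Dex MEFs against 10.81, 10.90 and 9.96 in control Dex MEFs, and 8.55, 8.47 and 9.29 in dKO EtOH MEFs against 11.21, 11.19 and 11.21 in control EtOH MEFs. All dKO arrays lay below all control arrays. The changes were -1.46 ± 0.25 under Dex (adjusted p = 0.00148) and -2.43 ± 0.25 under EtOH (adjusted p = 3.56e-05). Control Dex replicate 3 lay nearest to the dKO arrays, and without it the change under Dex ran to -1.75.

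Slc38a4, a sodium-coupled neutral amino acid carrier known as a gene with parental imprinting in mouse, had levels of 6.66, 6.69 and 6.58 in dKO Dex MEFs against 7.55, 7.31 and 7.89 in control Dex MEFs. Under EtOH they were 6.17, 5.86 and 6.55 in dKO MEFs, with 2 of 3 arrays above background, against 8.12, 7.87 and 8.09 in control MEFs. The groups were separate under both treatments, by -0.94 ± 0.18 (adjusted p = 0.00301) and by -1.83 ± 0.18 (adjusted p = 2.65e-05). Slc27a1, the fatty acid transport protein FATP1, had levels of 7.89, 8.10 and 7.62 in dKO Dex MEFs against 8.69, 8.56 and 7.98 in control Dex MEFs, which overlapped and gave a change of -0.54 ± 0.19 (adjusted p = 0.0724). Under EtOH they were 7.53, 7.44 and 7.89 in dKO MEFs against 8.96, 8.84 and 9.15 in control MEFs, which were separate, with a change of -1.36 ± 0.19 (adjusted p = 0.00041).

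Calls under a single treatment were many, and the difference between treatments was not called for any of them. Under Dex, Slc38a2, the amino acid carrier SNAT2 that cells induce on amino acid shortage, was higher in dKO MEFs by 0.99 ± 0.23 (0.47 under EtOH) with its brighter probe. The other measured Slc38a2 probe gave 0.07 under Dex and -0.34 under EtOH, so the difference rests on 1 probe. Slc4a3, an anion exchanger, was higher in dKO than in control Dex MEFs by 0.81 (0.11 under EtOH) and Slc16a4, of the monocarboxylate carrier family, by 0.72 (0.47). The mitochondrial family members Slc25a17, a peroxisomal carrier despite its family, Slc25a47 and Slc25a39 were higher in dKO than in control Dex MEFs by 0.64, 0.56 and 0.52. Slc2a9, a urate carrier, was lower in dKO than in control Dex MEFs by 0.86 and lost its call without dKO Dex replicate 2 (-0.73). Slc35g1 was at background in dKO MEFs, at 5.68, 5.71 and 5.95 under Dex against 6.64, 6.56 and 6.40 in control Dex MEFs, and at least 1.16-fold lower (adjusted p = 0.00218). Its detection on control arrays alone brought it into the list, so a genotype difference is built into its selection.

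Under EtOH, Slc9a3r1, the scaffold NHERF1, had levels of 9.30, 9.34 and 10.40 in dKO MEFs against a mean of 11.08 ± 0.09 in control MEFs (SD, n = 3), a change of -1.40 ± 0.28 (adjusted p = 0.00373). dKO EtOH replicate 3 lay closest to the control arrays. Without the 3 arrays that lay apart the change was -0.69 and stayed called (adjusted p = 0.00904), with 1 array left in the dKO EtOH group. Slc9b2 was lower by 1.05 ± 0.22 in dKO EtOH MEFs, and Slc41a3 and Slc52a3 were lower by 0.71 and 0.72, and the last 2 lost their calls without those 3 arrays (-0.53 and -0.45). Slc7a5, the large neutral amino acid exchanger LAT1, and Slc7a11, the cystine and glutamate exchanger, were called higher, the first by 0.66 (adjusted p = 0.0318) and the second, at background on the control EtOH arrays, by at least 1.35-fold (adjusted p = 0.0446). The Slc7a11 call was lost without any single array but dKO EtOH replicate 1 and control Dex replicates 1 and 3, and its fitted change was 0.64 with all arrays and 0.35 without dKO EtOH replicate 3. The Slc7a5 call was lost without dKO EtOH replicate 2 (0.69) or 3 (0.48) or any control EtOH array.

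Slc35c1, the Golgi carrier of GDP-fucose, is next to Cry2 in the RefSeq order of protein-coding genes, and no member is among the 5 protein-coding neighbours on either side of Cry1. Its levels were 11.33, 11.43 and 11.41 in dKO Dex MEFs against 11.92, 11.78 and 11.52 in control Dex MEFs, and 11.25, 11.20 and 11.35 in dKO EtOH MEFs against 11.76, 11.74 and 11.65 in control EtOH MEFs. All dKO arrays were below all control arrays. The changes were -0.35 ± 0.11 under Dex (adjusted p = 0.0389) and -0.45 ± 0.11 under EtOH (adjusted p = 0.0104). The call under Dex was lost without any single array but dKO EtOH replicates 2 and 3 and control Dex replicate 3, with changes from -0.46 to -0.26, and the call under EtOH without the 3 arrays that lay apart (-0.36, adjusted p = 0.0641). Whether the neighbouring deletion bears on it was not tested. A second Slc35c1 probe gave -0.14 under Dex and -1.06 under EtOH.

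Levels of macrophage markers moved with the genotype. Of the 10 measured markers, 8 were called lower in dKO MEFs under Dex and 9 under EtOH, with none higher, and Dex against EtOH gave 1 higher and 2 lower in dKO MEFs and 2 higher and 5 lower in control MEFs. The summed signal of the 10 markers ran from 68673 to 68937 in dKO Dex MEFs, from 69931 to 94442 in dKO EtOH MEFs, from 100486 to 110196 in control Dex MEFs and from 108033 to 122762 in control EtOH MEFs. Several members are known from macrophages, where Slc11a1, the metal carrier NRAMP1 of phagosomes, Slc15a3, Slc7a7 and Slc40a1 are well expressed. The sum of 11 fibroblast markers ran the other way, from 100183 to 104951 in dKO Dex MEFs, from 99592 to 108928 in dKO EtOH MEFs, from 61789 to 68850 in control Dex MEFs and from 64439 to 68194 in control EtOH MEFs. Of the 11, 7 were called higher and 0 lower in dKO MEFs under Dex, and 8 higher and 1 lower under EtOH. Vim was the brightest. Under EtOH, Col1a1 averaged 12.16 in dKO and 12.18 in control MEFs, and Dcn 11.76 and 12.55.

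Markers of other cell types also moved. Of 5 neural markers on the array 3 were measured, Map2, Nes and Stmn2, with Tubb3 and Gfap at background, and 2 were called higher in dKO MEFs under each treatment. Their summed signal ran from 2840 to 2862 in dKO Dex MEFs against 1489 to 2064 in control Dex MEFs, and from 1758 to 2115 in dKO EtOH MEFs against 1026 to 1071 in control EtOH MEFs. Slc1a3, known from astrocytes, was higher in dKO MEFs as well. The neural sums were higher under Dex through Map2 alone, which averaged 10.94 against 8.41 in dKO and 10.31 against 8.03 in control MEFs. Nes and Stmn2 averaged lower under Dex in both genotypes, as did Slc6a17. By Dex, 1 of the 3 neural markers was called higher and 1 lower in dKO MEFs, and 1 higher and 2 lower in control MEFs. Of 6 skeletal muscle markers 2 were measured, with Myod1, Myog, Ckm and Tnnt3 at background. In dKO MEFs Acta1 was higher by 1.55 under Dex and by 1.53 under EtOH, and Des was lower by 1.65 and by 2.07. The muscle sum ran from 10737 to 11975 in dKO Dex MEFs against 5015 to 6383 in control Dex MEFs, and from 11881 to 13021 in dKO EtOH MEFs against 4926 to 6366 in control EtOH MEFs. Of 6 endothelial markers Emcn alone was measured, and it was higher under Dex by 1.86 in dKO and by 1.09 in control MEFs. Of 6 adipocyte markers Lpl and Pparg were measured, and Lpl was lower in dKO MEFs by 0.77 under Dex and by 0.42 under EtOH. The part of these markers in the results was not tested.

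Slc11a1 had levels of 12.028, 11.999 and 11.930 in dKO Dex MEFs against 12.62, 12.67 and 12.72 in control Dex MEFs, and of 12.32, 12.21 and 12.21 in dKO EtOH MEFs against 12.93, 13.01 and 13.04 in control EtOH MEFs. The 4 groups formed 4 steps that did not overlap. The genotype changes were -0.68 ± 0.08 and -0.75 ± 0.08 (adjusted p = 0.000155 and 6.81e-05), close in size to the medians of the macrophage markers, -0.64 under Dex and -0.78 under EtOH. Slc15a3, at -2.06 and -1.44, and Slc7a8, at -1.46 and -2.43, changed by more than those medians. Slc7a7, a cationic amino acid exchanger of macrophages and epithelia, was lower in dKO Dex MEFs by 0.87 ± 0.20 and gave -0.06 under EtOH. The part of macrophage content in these results was not tested.

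**Figure D4:**
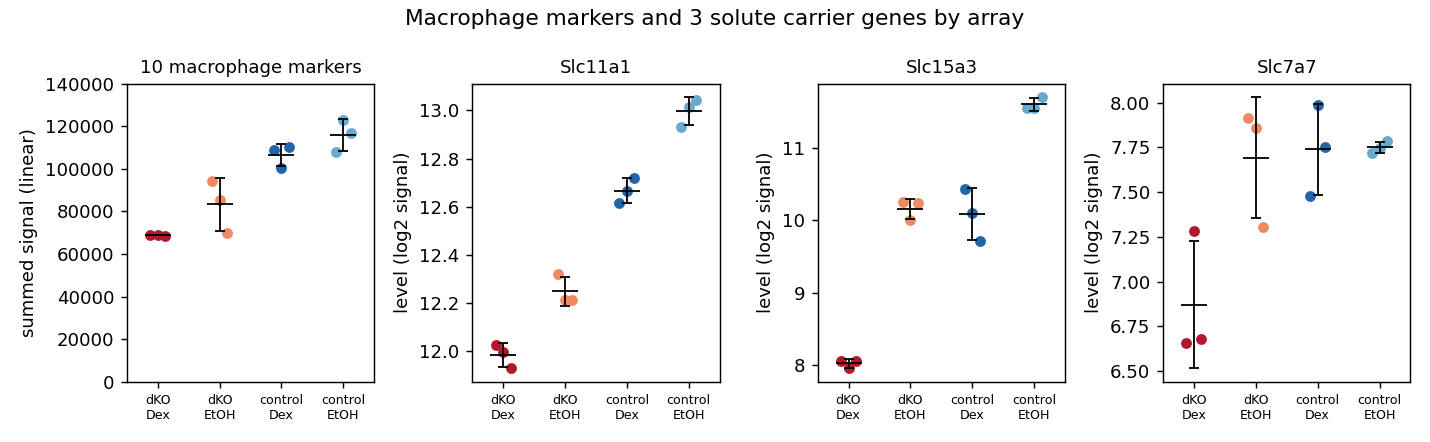
Summed linear signal of 10 macrophage markers (left) and log2 levels of Slc11a1, Slc15a3 and Slc7a7 by array, with the mean ± SD of 3 arrays. Marker sums lie between 68673 and 94442 on the dKO arrays and between 100486 and 122762 on the control arrays.

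Each of the 11 substrate groups had at least 1 call in the 4 comparisons. Amino acid and peptide carriers held the most calls in each comparison. Of their 27 members, 2 were higher and 4 lower under Dex in dKO MEFs, 2 higher and 6 lower under Dex in control MEFs, 6 higher and 5 lower in dKO under Dex, and 5 higher and 4 lower in dKO under EtOH. They ran from -2.43 (Slc7a8) to 4.99 (Slc1a3) in the last comparison, which was the widest range of any group there. Over all genes 14.6% and 20.3% were called by Dex in dKO and control MEFs, and 19.7% and 26.5% by genotype under Dex and EtOH.

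Mitochondrial carriers, which exchange metabolites, nucleotides and cofactors across the inner membrane, were called in 5 of 26 and 6 of 26 members by Dex in dKO and control MEFs, and in 4 and 3 by genotype under Dex and EtOH. Over all genes 14.6%, 20.3%, 19.7% and 26.5% were called in these comparisons. In the same comparisons the log2 differences of these carriers ran from -1.03 to 0.98. Slc25a45, a member of the same family, was lower in dKO MEFs by 0.36 under Dex and by 0.52 under EtOH, and the call under Dex was lost without dKO Dex replicate 3 (-0.34) or control Dex replicate 2 (-0.33). Metal ion carriers had 2 and 3 of 19 called by Dex and 1 and 6 by genotype, beside the same shares of all genes. Among them the zinc carriers of the Slc39 family had 7 members and no call in any comparison, as 55% of all genes had none in the 4 comparisons of 2 groups, and those of the Slc30 family had 5 members and 1 call, Slc30a4 in dKO EtOH MEFs (0.66, adjusted p = 0.0311), which was lost without any dKO EtOH array or control EtOH replicate 2 (0.67) or 3 (0.50). Metallothionein Mt2, which binds the metals these carriers move, was higher under Dex by 4.27 in dKO and by 3.68 in control MEFs.

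Nucleotide sugar and acetyl-CoA carriers of the Golgi and endoplasmic reticulum had few Dex calls, with 1 of 18 members called in dKO MEFs (Slc35b4, a carrier of UDP-sugars, 0.47) and none in control MEFs, beside 14.6% and 20.3% of all genes. In control MEFs their log2 differences ran from -0.10 to 0.40. At an unadjusted p under 0.05 these counts were 3 and 1 of 18, beside 30.4% and 32.4% of all genes. By genotype 4 were called under Dex and 1 under EtOH, beside 19.7% and 26.5% of all genes. The Slc35b4 call was lost without any single array but dKO EtOH replicate 3 and control Dex replicate 3, with changes from 0.38 to 0.63. Inorganic ion carriers had 0 members higher under Dex in either genotype, with 2 lower in dKO and 3 lower in control MEFs, where 8.62% and 8.85% of all genes were higher and 5.99% and 11.4% lower. At an unadjusted p under 0.05 3 and 1 of 18 were higher. By genotype 2 were higher and 2 lower under Dex, and 1 was higher and 5 lower under EtOH, beside 19.7% and 26.5% of all genes called. Among the lower members were Slc12a9, a cation and chloride cotransporter family member (-0.47 under Dex, -0.46 under EtOH) and Slc8a1, the sodium and calcium exchanger (-0.60 under EtOH). Both Slc12a9 calls were lost without single arrays, under Dex without control Dex replicate 1 (-0.35) or 2 (-0.48) or dKO Dex replicate 1 (-0.46) or 2 (-0.40), and under EtOH without dKO EtOH replicate 1 (-0.41) or control EtOH replicate 1 (-0.40) or 3 (-0.49). The Slc8a1 call was lost without the 3 arrays that lay apart (-0.37).

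Carriers of sugars, inositol and sodium-coupled solutes had 3 members higher and 1 lower of 14 under Dex in dKO MEFs and 3 higher and 2 lower in control MEFs. By genotype they had 2 higher and 1 lower under Dex and 3 higher under EtOH. Over all genes 14.6% and 20.3% were called by Dex in dKO and control MEFs, and 19.7% and 26.5% by genotype. Slc45a4, a relative of Slc45a3, changed under Dex by 0.54 in control MEFs, a call lost without control Dex replicate 3 (0.37) or control EtOH replicate 1 (0.52), 2 (0.58) or 3 (0.53). It was higher in dKO EtOH MEFs by 0.62, a call lost without dKO EtOH replicate 2 (0.53). Slc2a10, the glucose transporter family member GLUT10, had levels of 7.79, 8.05 and 7.96 in dKO EtOH MEFs against 7.42, 7.35 and 7.35 in control EtOH MEFs, which were separate. Its change was 0.56 (adjusted p = 0.0134), and the call was lost without dKO EtOH replicate 2 (0.50).

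Several other called members passed the test in a single comparison each. Slc20a2, a sodium-coupled phosphate carrier, was lower under Dex in dKO MEFs by 0.51 (adjusted p = 0.0201), a call lost without dKO Dex replicate 1 (-0.52) or 2 (-0.46). Slc8b1, the mitochondrial sodium and calcium exchanger NCLX, was lower in dKO Dex MEFs by 0.56 (adjusted p = 0.00812) and kept its call in all 12 single omissions. Slc23a2, an ascorbate carrier, was lower in dKO Dex MEFs by 0.46, a call lost without dKO Dex replicate 2 (-0.38) or 3 (-0.43) or control Dex replicate 1 (-0.42) or 2 (-0.48). Slc25a15, the mitochondrial ornithine carrier, was higher under Dex in control MEFs by 0.55 (adjusted p = 0.0492). Slc36a1, a proton-coupled carrier of small amino acids, and Slc35a2, the Golgi carrier of UDP-galactose, were higher in dKO Dex MEFs by 0.56 (adjusted p = 0.0385) and by 0.54 (adjusted p = 0.0374). The Slc25a15 call was lost without dKO Dex replicate 2, dKO EtOH replicate 2, control Dex replicate 1 or 2 or any control EtOH array, with changes from 0.46 to 0.70 over all single omissions. The Slc36a1 call was lost without dKO Dex replicate 2 or 3, any control Dex array or control EtOH replicate 2 or 3 (0.45 to 0.66), and the Slc35a2 call without any one of the dKO Dex, control Dex or control EtOH arrays (0.43 to 0.59).

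Some groups held members with no call. Slc22a5, the carnitine carrier OCTN2, had log2 differences under Dex of 0.30 in dKO and 0.25 in control MEFs (adjusted p = 0.0623 and 0.0939). Slc16a10, a carrier of aromatic amino acids, had a log2 difference of -0.49 and Slc16a9, of the same family, one of 0.55 in dKO EtOH MEFs against control EtOH MEFs (adjusted p = 0.103 and 0.126). The fatty acid transport proteins Slc27a4 and Slc27a6 had log2 differences from -0.37 to 0.32 and from -0.33 to 0.31 over the 4 comparisons.

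Vitamin, choline and haem carriers had 3 members higher and 1 lower of 9 under Dex in dKO MEFs, and 2 higher and 3 lower in control MEFs, beside 14.6% and 20.3% of all genes called. These counts leave out the choline carrier Slc5a7, which by its family number was counted with the sugar carriers. Slc19a1, the reduced folate carrier, was higher by 0.77 in dKO MEFs (0.40 in control), a call lost without dKO EtOH replicate 1 (0.64). Slc19a2, a thiamine carrier, gave 0.06 in dKO MEFs and was higher by 0.41 in control MEFs, a call lost without control Dex replicate 1 (0.36) or 3 (0.39) or control EtOH replicate 1 or 2 (0.35 each). Among the 5 mono- and dicarboxylate carriers Slc16a4 under Dex was the only genotype call and Dex gave none, with 0 and 0 of 5 at an unadjusted p under 0.05. Slc17a5, the lysosomal sialic acid carrier, was lower in dKO MEFs by 0.64 under Dex and by 0.45 under EtOH, and the EtOH call was lost without dKO EtOH replicate 1 (-0.40) or 2 (-0.38), control EtOH replicate 2 or 3 (-0.39 each), or the 3 arrays that lay apart (-0.21). Slc29a3, a lysosomal nucleoside carrier, was lower in dKO EtOH MEFs by 0.76, a call lost without dKO EtOH replicate 1 (-0.57) or 2 (-0.72) or control EtOH replicate 2 (-0.77) or 3 (-0.72).

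**Figure D5:**
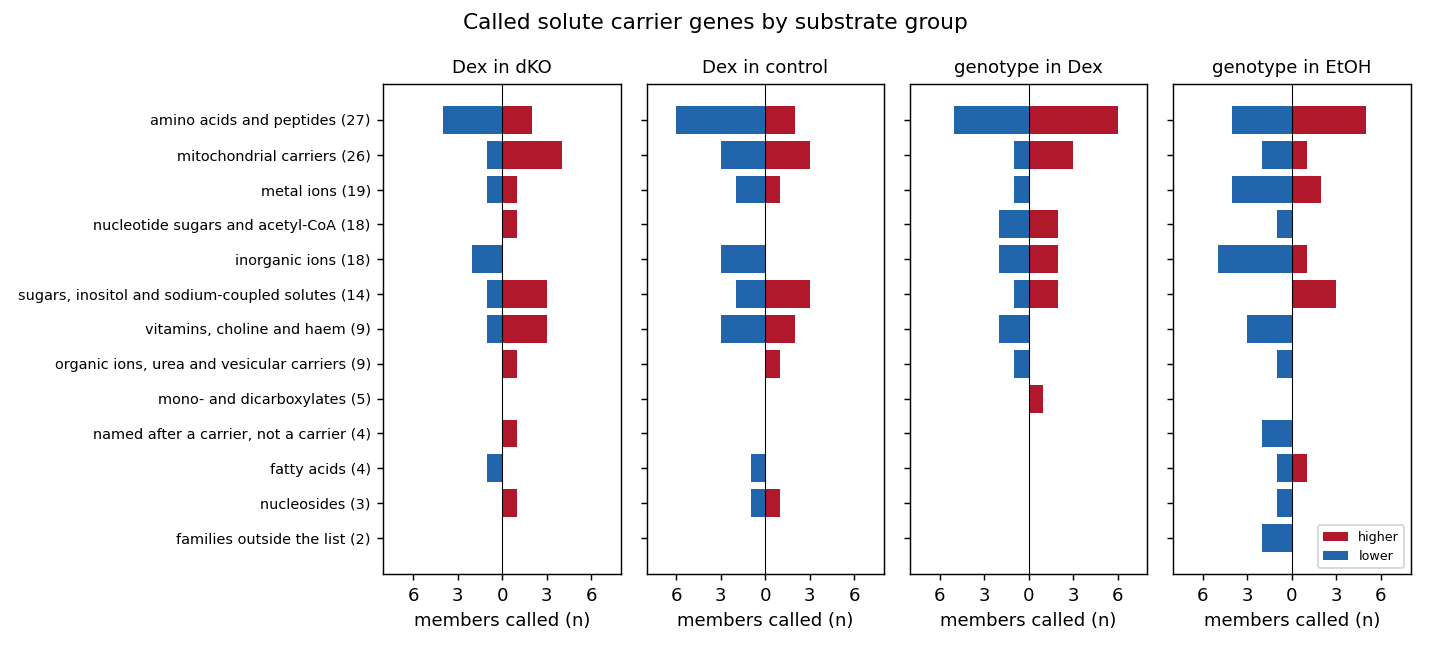
Number of members called higher (right of 0) and lower (left of 0) in each of the 4 comparisons of 2 groups, by substrate group, with the number of members of a group in brackets. Amino acid and peptide carriers reach 6 higher and 5 lower in dKO against control MEFs under Dex.

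The interaction asks whether the Dex change differed between genotypes, as the Dex change in dKO MEFs less that in control MEFs. No member was called by limma, where 2.29% of all genes were called, and 29 members (18.4%) had an unadjusted p under 0.05, where 22.5% of all genes did. The lowest adjusted p was 0.0533, for Slc41a3 (0.76 ± 0.18, 95% interval 0.36 to 1.16). Next among the positive values were Slc25a10 (0.91 ± 0.24, adjusted p = 0.0685), Slc38a4 (0.89 ± 0.25, adjusted p = 0.0801), Slc29a4 (0.92), Slc2a3 (0.82) and Slc1a2 (0.95), of which Slc29a4 and Slc1a2 were at background in at least 1 group. Slc29a4 entered the list through its control EtOH arrays alone. The smallest p among the negative values belonged to Slc45a4 (-0.80 ± 0.21, adjusted p = 0.0721), Slc25a36 (-1.33 ± 0.43), Slc7a7 (-0.81), Slc15a3 (-0.62), Slc41a2 (-0.39) and Slc6a15 (-1.06). The 2 strongest Dex-induced members gave 0.62 ± 0.31 for Slc45a3 (95% interval -0.05 to 1.30) and -0.02 ± 0.30 for Slc10a6 (95% interval -0.66 to 0.63). Both are fitted values that rest partly on signal below detection. Slc10a6 was at background on all EtOH arrays, and Slc45a3 on all control EtOH arrays and all but 1 dKO EtOH array. A p above the threshold does not show that the genotypes responded alike.

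The count of interaction calls depended on how arrays were weighted or left out. With array weights the number of members called was 28, 22 positive and 6 negative. Without dKO EtOH replicate 3 the number of members called was 21, 17 positive and 4 negative, and without control Dex replicate 1 or control Dex replicate 3 it was 1. dKO EtOH replicate 3 had levels between those of the other dKO EtOH arrays and the dKO Dex or control arrays for Slc9a3r1, Slc7a8 and Slc25a36. The same omission moved the members called under Dex in dKO MEFs to 48 and those called by genotype under EtOH to 60.

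Of the 158 members, 82 (51.9%) were called in none of the 4 comparisons of 2 groups, as were 55% of all genes, and 35 were called in 1, 30 in 2 and 7 in 3. Shares of all genes for the last 3 counts are not given here. The comparisons share groups, so these counts are not read as a trait of the members. Of 11 measured carriers that bear other names, 2 were higher and 1 lower under Dex in dKO, 2 higher and 3 lower in control MEFs, 0 higher and 2 lower in dKO under Dex, and 1 higher and 5 lower under EtOH. Over all genes 14.6%, 20.3%, 19.7% and 26.5% were called in these comparisons. Among the 11 carriers Slco4a1, an organic anion carrier, changed in all 4 comparisons, by -0.57, -0.63, -0.90 and -0.96 in that order, and Mfsd2a, a carrier of lysophosphatidylcholine, was higher under Dex by 1.46 in dKO and 1.30 in control MEFs.

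A list of 18 measured genes held partners and regulators of carriers and genes of metal and stress handling such as Mt1, Mt2, Tfrc, Ddit3 and Hif1a. Of these 18, 6 were called higher and 1 lower under Dex in dKO MEFs and 9 higher and 1 lower in control MEFs, where 14.6% and 20.3% of all genes were called. Sgk1, a kinase that raises the surface amount of several carriers, was higher by 1.65 in dKO and 1.97 in control MEFs, and Atp1b1, a subunit of the sodium pump that drives sodium-coupled carriers, by 1.504 and 1.768. By genotype 2 were higher and 3 lower under Dex, and 6 higher and 4 lower under EtOH, where 19.7% and 26.5% of all genes were called. Wnk1, a kinase upstream of cation and chloride cotransporters, was the only one of these called in the interaction (-1.02, adjusted p = 0.0394). Of 14 measured ABC transporters, the other large class of membrane transporters, 0 were higher and 1 lower under Dex in dKO, 1 higher and 1 lower in control MEFs, 1 higher and 4 lower in dKO under Dex, and 0 higher and 4 lower under EtOH. These counts stand beside the same shares of all genes. Abcb4, a phospholipid transporter, was lower under Dex by 1.24 in dKO and by 1.21 in control MEFs.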

How the data were processed

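RNA of 12 samples of primary MEFs, 3 in each of 4 groups, was measured on Illumina bead arrays. The deposited table held a mean bead intensity per probe, neither background-corrected nor normalized, with a detection p-value against negative control beads, per the file headers. It was exported from GenomeStudio, per the submitters' processing notes, in an unstated version. A normalized intensity table of the same arrays, on a linear scale with unstated steps, was deposited as well and served as an alternative. In R 4.3.3, limma 3.58.1 corrected the deposited intensities for background from the detection p-values (nec, offset 16), normalized them by quantiles and took log2. Probes with a detection p under 0.01 on at least 3 of 12 arrays were kept, and each of 8420 genes was represented by the brightest of its kept probes on average. Other probes of a gene can behave differently.

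Group means were fitted with lmFit and eBayes over all 12 arrays (11.5 degrees of freedom in total), for Dex against EtOH within each genotype, dKO against control within each treatment, and the difference between the Dex changes. P-values are two-sided and adjusted by Benjamini-Hochberg over all 8420 genes, and a gene is called at an adjusted p under 0.05. Where a gene was at background on every array of a group, its fold is a bound, from the mean of the brighter group against the mean, per array, of the higher of the lowest level above background and its own signal. The fit was tested on simulated data. The precision is limited by 3 arrays in a group. The members, the substrate groups and the other lists were chosen with earlier results of these data known.

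Named were Slc1a3, Slc7a8, Slc45a3, Slc15a3, per comparison up to 12 called members in each direction whose groups did not overlap, up to 4 members of a substrate group by smallest p, the 6 smallest interaction p in each direction, members at the detection threshold, and called genes of other lists. The neighbour of Cry2 and other single members outside this rule were chosen after their values were seen. Alternatives were no background correction, an offset of 50, median scaling, the deposited normalized table, a detection p of 0.05 or no filter, the mean over kept probes, trended robust variance, array weights, only the compared groups, a replicate block, each array left out, 3 arrays left out together, and a stricter symbol rule. Promoter sequences are from RefSeq.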

Additional observations from a re-analysis of the deposited data

How the results depend on the processing

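Slc1a3, Slc45a3, Slc10a6, Slc15a3, Slc7a8, Slc38a4, Slc5a7, Slc6a12 and Slc11a1 kept their named changes by genotype or, for Slc45a3, Slc10a6, Slc15a3, Slc5a7 and Slc6a12, by Dex in every setting. Of the 28, 34, 31 and 39 calls (Dex in dKO, Dex in control, genotype in Dex, genotype in EtOH), 8, 18, 21 and 12 were kept in every setting. Array weights called 62, 60, 58 and 74 members and 28 in the interaction. Fitting only the compared groups called 16 by Dex in dKO. Without the 3 arrays that lay apart, which leaves 1 dKO EtOH array that is assumed to vary like the others, 14 were called by Dex in dKO and 47 by genotype in Dex. Leaving out single arrays gave 16 to 48, 23 to 39, 23 to 39, 22 to 60 and, in the interaction, 0 to 21. Dex in dKO gave 18 without dKO Dex replicate 1, 16 without dKO Dex replicate 3, 17 without dKO EtOH replicate 1 or 2 and 48 without replicate 3, and genotype in EtOH gave 22 without dKO EtOH replicate 2, 60 without replicate 3, 24 without control EtOH replicate 1 and 23 without replicate 3. The interaction count of 0 became 2 with no background correction, 1 with an offset of 50, 7 with median scaling, 2 with the deposited normalized table, 1 with a detection p under 0.05 and 2 with trended robust variance, all positive. With median scaling the all-gene medians became 0.14, -0.15, 0.03 and -0.25, with 20 members called higher and 8 lower by Dex in dKO, 6 and 25 by Dex in control and 7 and 51 by genotype in EtOH. With the mean over kept probes Slc44a2 turned to -0.051 by Dex in dKO and 0.62 by genotype in EtOH, and without the 3 arrays Slc35a2 turned to 0.38 by genotype in EtOH. With replicate number as a block 20, 27, 28, 31 and 0 members were called, and with number within genotype 19 and 25 by Dex. The labels do not say that a replicate number is a shared litter or day, so the numbers were not taken as pairs. Residuals of same-numbered arrays correlated between -0.18 and 0.14, and 3 arrays in a group are too few to exclude pairing. Genotype comparisons could not be fitted within genotype blocks. Of the named single values 8528 kept direction and side of the threshold, 386 lost and 233 gained a call. The stricter symbol rule left 139 of 158 members. The cause of these differences was not tested.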
